A study of Mus musculus with 16 samples.

Results

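Mouse melanomas sampled after 4 days of a BRAF inhibitor were compared with untreated mouse melanomas, using RNA of whole tumour biopsies on 2-colour Agilent arrays. The samples are those whose titles name 4 days of treatment (4 tumours) or no treatment (4 tumours), which is 8 of the 16 tumours of the series. The other 8 are 4 tumours after 60 days of the inhibitor and 4 resistant tumours at 120 days, and they enter through the shared estimate of the spread and where they are named. On every array the tumour RNA was labelled with Cy5 and a universal mouse reference RNA with Cy3. A level is therefore a log2 ratio of tumour over reference, and a difference is the 4-day mean minus the untreated mean of such levels, given as log2 ± its standard error (SE). The difference sets 4 arrays against 4, while its SE uses a spread estimated from all 16 arrays and moderated across genes. The sources used here do not give the name and dose of the drug, the genotype, strain and age of the mice, the origin of the tumours or the time of day of the biopsies. The 4-day tumours carry a series of title codes (STS) that no other tumour has, while untreated, 60-day and resistant tumours all carry codes of another series (RG), so the origin or handling of the 4-day animals and the 4 days of treatment cannot be told apart. Of the untreated tumours 3 have a code in common, and nothing in the labels says whether a code stands for an animal, so p-values measure the spread between these samples. The 60-day and the resistant tumours have 2 codes a group with 2 tumours each, and each code lies on 1 slide, so code and slide cannot be told apart in these groups, which feed the slide term and the shared spread. All 7 markers of the melanocyte lineage that were checked (Mitf, Sox10, Tyr, Tyrp1, Dct, Pmel and Mlana) were above background on all 8 arrays. A biopsy mixes tumour, skin, stroma and immune cells, and fewer cells of a type and less RNA per cell cannot be told apart in it.

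BRAF is a kinase that passes growth signals from RAS through MEK to ERK. Active ERK drives transcription of cyclin D1 and of its own inhibitors, the Dusp phosphatases and the Sprouty and Spred proteins, so these transcripts are widely used as a readout of the pathway. In melanomas with an activated BRAF the pathway runs without outside signals, and its inhibition is known to stop proliferation and to favour pigment cell differentiation.

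Among the genes that rose were factors of the circadian clock, enzymes of retinol, xenobiotic and lipid metabolism and glutamine synthetase. Cyclins, DNA replication genes, matrix proteases and some chaperones of the endoplasmic reticulum were among the genes that fell. Of 21968 genes and transcripts tested, 644 (2.93%) passed an adjusted p of 0.05 by limma, with 207 (0.942%) higher and 437 (1.99%) lower at 4 days. There were 188 that changed at least 2-fold, 64 of them higher and 124 lower. At an unadjusted p under 0.05 there were 4640. The median difference over all genes was -0.01, and 48.7% of genes had a positive difference. All 644 had the same direction on both slides, but they were chosen by the difference pooled over those slides. Agreement in direction was thus favoured in advance and is not a replication. Alone, slide 1 called 2 genes and slide 2 called 3. The 4 levels of each group did not overlap for 529 of the 644, and for 1538 (7%) of all genes tested.

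The number of calls rested on single arrays. Leaving out untreated replicate 1, 2 or 4 brought it to 245, 89 or 94, and leaving out 4-day replicate 1, 2 or 4 to 138, 334 or 154. It was 416 when 60-day replicate 1 was left out and 391 for 60-day replicate 3. Larger counts came from leaving out untreated replicate 3 (1086), resistant replicate 1 (1333) or 4-day replicate 3 (1783). The named genes that passed whichever array was left out were Dbp, Tef, Ciart, Nr1d1, Per2, Cry2, Arntl, Glul, Arrdc2, Foxo1, Adh1, Gstm1, Ccnd1, E2f1, Timeless, Adamts4, Adam19, Cthrc1, Ccn4, Calr, Sdf2l1, Hspa5, Tmem200a, Mdga2, Fblim1 and 3 transcripts of chromosome 8 without a RefSeq symbol. For the others that passed, the arrays without which the call was lost were most often untreated replicates 2 and 4 and 4-day replicates 1 and 4. A model of the 8 arrays alone called 24 genes, 12 of them higher.

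The arrays themselves differed within the groups. Between 27351 and 30192 probes were above background on the 8 arrays. On the leading component of the 8 arrays (44.2% of the variance) 4-day replicates 1 and 4 lay at -48.7 and -62.3, and 4-day replicates 2 and 3 at 0.82 and 1.23. Untreated replicates 1, 2 and 4 lay at 29.3, 54.1 and 49, while untreated replicate 3 lay at -23.4, beyond 4-day replicates 2 and 3 on the 4-day side. Correlations across genes, which are not independent replicates, were 0.833 to 0.941 among 4-day arrays, 0.789 to 0.957 among untreated arrays and 0.726 to 0.891 between them.

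**Figure D1:**
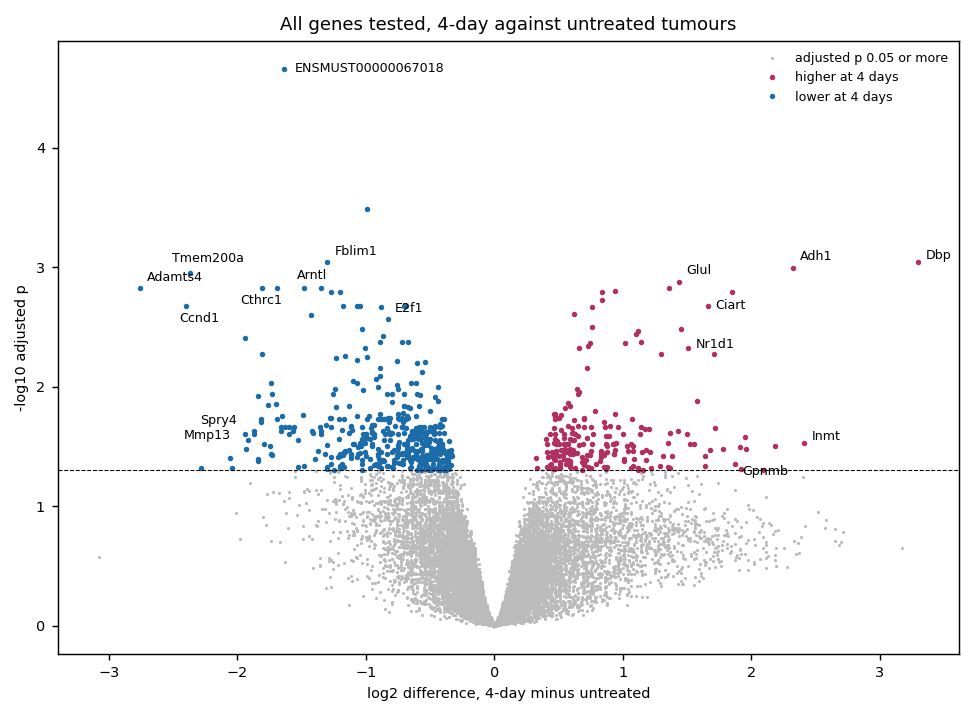
Log2 difference of each gene or transcript between 4-day and untreated tumours (x axis) against -log10 of its adjusted p from limma (y axis), with 4 arrays in each group. Each point is 1 of 21968 genes, coloured where it passes the dashed line at an adjusted p of 0.05, and the 437 lower genes outnumber the 207 higher genes while Dbp has the largest difference, at 3.30.

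The transcripts that report ERK activity fell in part. Ccnd1, which encodes cyclin D1, stood at 2.78, 2.72, 1.75 and 2.81 in untreated replicates 1 to 4 and at -0.10, 0.73, -0.13 and -0.04 in the 4-day replicates. The groups did not overlap, with untreated replicate 3 the lowest untreated and 4-day replicate 2 the highest treated tumour. The fall was 5.27-fold (-2.40 ± 0.31, adjusted p = 0.0021), with -2.37 on slide 1 and -2.43 on slide 2. Spry4, a Sprouty inhibitor of the pathway, stood at 1.95, 2.28, 2.08 and 1.68 untreated and at -0.07, 1.01, -0.05 and -0.39 at 4 days. These groups did not overlap either, and 4-day replicate 2 was again the highest of its group. Spry4 fell by 1.87 ± 0.37 (adjusted p = 0.0234). Dusp6, the phosphatase that inactivates ERK, stood at 0.89, 1.10, 1.26 and 1.20 untreated and at 0.04, 0.21, 0.53 and -0.09 at 4 days, a fall of 0.94 ± 0.19 (adjusted p = 0.0251). Spred1, a further inhibitor, fell by 0.92 ± 0.22 (adjusted p = 0.0448), and its other probes gave -0.94 to -0.54.

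Those 3 were the members past the threshold among 14 measured feedback inhibitors, none rose, and the median of the list was -0.05 against -0.01 over all genes. The list had 7 members with a positive and 7 with a negative difference, from -1.87 to 0.73. Its 3 calls were 0 without 4-day replicate 1 or 4 or untreated replicate 2 or 4, 1 without 4-day replicate 2 or untreated replicate 1, and 4 without replicate 3 of either group. Among 23 transcriptional targets of the pathway 4 fell and none rose, with a median of -0.38, and 17 had a negative difference. Besides Ccnd1 these were Phlda1, a pleckstrin domain gene induced by ERK (-1.26 ± 0.21, adjusted p = 0.0116), the chromatin architecture gene Hmga2 (-1.16 ± 0.26, adjusted p = 0.0348) and the ETS factor Elk3 (-1.12 ± 0.21, adjusted p = 0.0214). Phlda1 stood at 0.43, 0.99, 0.06 and 0.54 untreated and at -0.17, -0.38, -1.24 and -1.21 at 4 days, so that both 4-day tumours of slide 1 were lower than both of slide 2. The list median was -0.64 on slide 1 and -0.17 on slide 2. The number of its members that fell was 1 without untreated replicate 2 and 2 without 4-day replicate 1 or 4 or untreated replicate 4.

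The PEA3 factors, ETS factors that are close targets of ERK, did not pass. Etv5 had a difference of -0.96 ± 0.28 (adjusted p = 0.08) with groups that did not overlap (0.41 to 0.75 untreated, -0.86 to 0.08 at 4 days), and Etv4 had -0.44 ± 0.27 (adjusted p = 0.389). Myc had 0.09 ± 0.23, with -0.31 on slide 1 and 0.48 on slide 2. None of 17 immediate early factors passed (median 0.11, Jun at 0.10 ± 0.18, Jund at 0.27 ± 0.14). The components of the pathway themselves were also without a call among 24 measured (median 0.02). Braf had 0.38 ± 0.19 (adjusted p = 0.269), Nras -0.16 ± 0.12, Mapk3, which encodes ERK1, 0.50 ± 0.19, and the phosphatase gene Ptpn11 -0.37 ± 0.13.

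Of 26 receptor tyrosine kinases none passed (median 0.15), with Egfr at 0.38 ± 0.13 (adjusted p = 0.123), Fgfr1 at 0.25 ± 0.23 and Axl at -0.31 ± 0.18. Of 29 growth factor ligands 1 fell, Pdgfa, which encodes a ligand of the PDGF receptors (-1.48 ± 0.36, adjusted p = 0.0462). Its levels were 2.50, 2.54, 1.56 and 2.82 untreated and 0.45, 1.16, 1.50 and 0.39 at 4 days, so that untreated replicate 3 and 4-day replicate 3 nearly met.

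**Figure D2:**
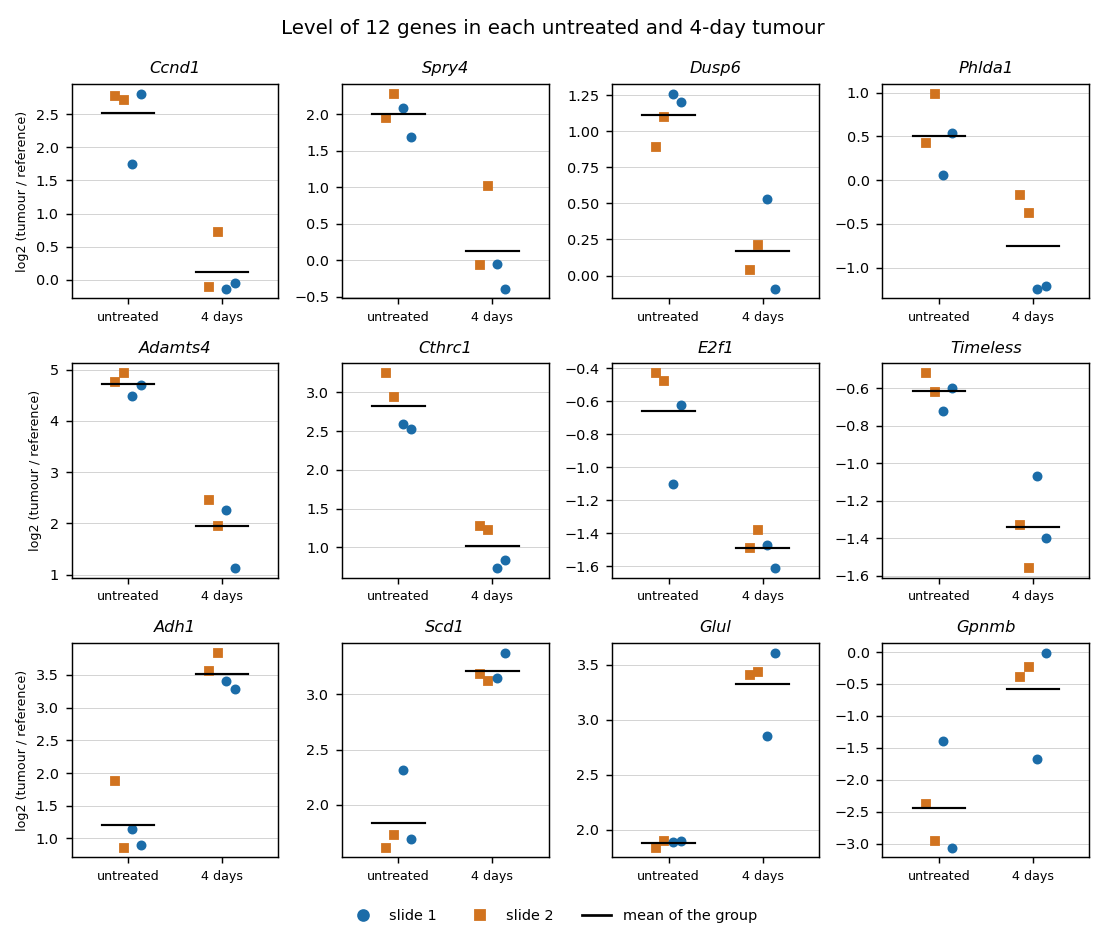
Level of 12 genes, as log2 of tumour over reference (y axis, scaled for each gene), in the 4 untreated and the 4 4-day tumours (x axis), with blue points for slide 1, orange squares for slide 2 and a bar at the group mean. The 4-day tumours lie below all untreated tumours for Ccnd1, Spry4, Dusp6, Phlda1, Adamts4, Cthrc1, E2f1 and Timeless and above them for Adh1, Scd1 and Glul, while for Gpnmb 4-day replicate 3 (-1.67) lies below untreated replicate 3 (-1.40).

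Of 28 genes of the G1 phase of the cell cycle 9 fell and 1 rose (median -0.39). All 3 D cyclins fell. Ccnd3 changed by -1.37 ± 0.31 and Ccnd2 by -0.96 ± 0.19 (adjusted p = 0.0348 and 0.022), next to Ccnd1 above. The transcription factor E2f1, which turns on S phase genes, stood at -0.43, -0.48, -1.10 and -0.62 untreated and at -1.49, -1.38, -1.47 and -1.61 at 4 days. The 4-day values spanned a narrow range below every untreated value, and untreated replicate 3 lay nearest to them. E2f1 fell by 0.83 ± 0.11 (adjusted p = 0.00273). E2f7, an E2F repressor, had -0.89 ± 0.21 (adjusted p = 0.0427), but its other probe gave 0.13, and the alternatives ran from -1.17 to -0.38. The CDK inhibitor gene Cdkn2d fell by 0.82 ± 0.15, and the member that rose was Cdkn1b, which encodes the CDK inhibitor p27 (0.46 ± 0.09, adjusted p = 0.0222). Cdkn2a, a tumour suppressor gene of the CDK inhibitor family, had -1.68 ± 0.49 (adjusted p = 0.0781), with 4-day levels from -3.07 to -0.16 and untreated levels from -0.48 to 0.75. The fall of the G1 list was down to 3 members without untreated replicate 1, 2 or 4 and 4 without 4-day replicate 1 or 4.

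Of 52 DNA replication genes 14 fell and none rose, 51 had a negative difference, and the median was -0.48 (-0.44 on slide 1, -0.47 on slide 2). Timeless and Tipin, whose products together protect the replication fork, fell by 0.72 ± 0.10 (adjusted p = 0.00419) and 0.71 ± 0.13 (adjusted p = 0.0165). Timeless stood at -0.52, -0.62, -0.72 and -0.60 untreated and at -1.33, -1.56, -1.07 and -1.40 at 4 days, without overlap. The polymerase gene Pola1 fell by 0.95 ± 0.21, the helicase subunits Mcm4 and Mcm6 by 0.72 ± 0.14 and 0.70 ± 0.12, and the histone chaperone Chaf1a by 0.72 ± 0.14. Of 51 genes of mitosis and the spindle 10 fell and none rose (median -0.62, 50 negative). They included Spc25 of the kinetochore (-1.35 ± 0.27), Birc5, which encodes survivin (-1.12 ± 0.26), Prc1, which bundles the midzone microtubules (-0.89 ± 0.16), the condensin genes Ncaph (-0.90 ± 0.21) and Smc2 (-0.88 ± 0.21, with 4-day replicate 2 missing) and Incenp of the chromosomal passenger complex (-0.87 ± 0.21). Adjusted p for these 6 lay between 0.0169 for Prc1 and 0.0477 for Smc2. With array weights the differences of Birc5, Ncaph and Incenp shrank to -0.68, -0.59 and -0.56. Mki67, the usual marker of dividing cells, had -0.68 ± 0.36 (adjusted p = 0.294), at -1.42, -2.19, -2.04 and -0.98 at 4 days and -0.54, -1.69, -0.52 and -1.17 untreated, so its groups overlapped. The replication count was 2 to 5 without untreated replicates 1, 2 or 4 or 4-day replicates 2 or 4, 7 without 4-day replicate 1 and 20 without resistant replicate 1. The mitosis count was 0 without untreated replicate 4, 1 without untreated replicate 1 or 2 or 4-day replicate 2 or 4, 2 without 4-day replicate 1, and 3 to 6 without 60-day replicates.

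Regulators of apoptosis had mostly negative differences, and Bmf was the only member that rose. Bmf, a BH3-only gene that antagonises BCL2 proteins, rose by 1.37 ± 0.34 (adjusted p = 0.0481), from -0.21, 0.30, -0.57 and 0.07 untreated to 2.50, 0.94, 1.46 and 0.17 at 4 days. 4-day replicate 4 lay within the untreated range. The effector genes Bax (-0.98 ± 0.18, adjusted p = 0.0176) and Bak1 (-0.64 ± 0.14, adjusted p = 0.0324) fell, as did Bbc3, which encodes PUMA (-0.71 ± 0.14), Casp8 (-0.53 ± 0.11) and the inhibitor Birc5. Bax stood at 0.31, 0.60, -0.11 and 0.23 untreated and at -0.76, -0.41, -0.65 and -1.08 at 4 days. Bcl2l11, which encodes BIM, had -0.12 ± 0.12, and its signal was well above background on no 4-day and on 3 untreated arrays. In all, 5 of 20 members fell and 1 rose, with a median of -0.31 and 19 negative differences. No member fell without 4-day replicate 1 or 4 or untreated replicate 2 or 4, and 2 did without untreated replicate 1. Bmf kept its call only when 4-day replicate 2 or 4 or resistant replicate 1 was the array left out. Of 24 targets of p53, 3 fell (Bax, Bbc3 and Zmat3, at -0.61 ± 0.13) and 1 rose (the repair gene Xpc, 0.44 ± 0.11), around a median of 0, and none passed without 4-day replicate 1 or 4 or untreated replicate 2 or 4. Ribosome biogenesis, a further marker of growth, had no call among 44 genes (median -0.08).

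The largest rise of any gene was in Dbp, and clock genes moved in both directions. The clock is a feedback loop. CLOCK and the product of Arntl (BMAL1) bind E-boxes and activate the Per and Cry repressors, the REV-ERB receptors (Nr1d1 and Nr1d2) and the output factors Dbp, Tef and Hlf, while REV-ERBs repress Arntl. The output factors bind D-boxes. Glucocorticoids, whose level follows the time of day, act on Per1 directly. The time of day of the biopsies is not given, so a difference in it and the treatment cannot be told apart for these genes.

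Short stretches are shown upstream of some clock genes described next, picked because they hold an E-box (CACGTG) or a D-box (TTATGTAA). Each is the 250 bases before a transcription start from RefSeq on build GRCm38.p6, 5' to 3' on the strand of the gene, with the motif in capitals. Motifs were searched on both strands. CACGTG stands in 6.02% and TTATGTAA in 0.819% of all 32851 windows. A match is only a description of the letters.
Ciart (chr3:95882229-95882478, minus strand): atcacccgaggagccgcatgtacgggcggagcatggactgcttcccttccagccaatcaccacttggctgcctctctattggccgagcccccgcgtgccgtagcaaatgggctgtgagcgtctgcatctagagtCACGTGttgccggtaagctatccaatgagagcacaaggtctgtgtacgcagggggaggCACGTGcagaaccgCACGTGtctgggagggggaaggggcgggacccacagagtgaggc
Tef (chr15:81802423-81802672, plus strand): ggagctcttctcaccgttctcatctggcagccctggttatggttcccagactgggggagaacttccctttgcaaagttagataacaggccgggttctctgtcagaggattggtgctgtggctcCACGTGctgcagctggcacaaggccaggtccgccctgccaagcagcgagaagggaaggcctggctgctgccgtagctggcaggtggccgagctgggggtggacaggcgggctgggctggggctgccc
Per1 (chr11:69098699-69098948, plus strand): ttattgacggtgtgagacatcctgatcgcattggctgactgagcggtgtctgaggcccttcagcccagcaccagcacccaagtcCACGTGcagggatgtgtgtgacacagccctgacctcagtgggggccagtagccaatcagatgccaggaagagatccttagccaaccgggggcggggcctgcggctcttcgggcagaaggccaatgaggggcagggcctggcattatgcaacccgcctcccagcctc
Per3 (chr4:151044666-151044915, minus strand): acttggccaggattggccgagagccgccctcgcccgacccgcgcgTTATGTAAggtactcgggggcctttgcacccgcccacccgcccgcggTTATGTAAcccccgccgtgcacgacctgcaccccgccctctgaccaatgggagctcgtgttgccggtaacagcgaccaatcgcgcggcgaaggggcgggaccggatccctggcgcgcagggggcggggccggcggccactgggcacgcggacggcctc

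Ciart holds 3 E-boxes in this window, Tef holds 1 at both of its 2 starts in the table, and Per1 holds 1 at 1 of its 2 starts. Per3 holds 2 D-boxes. Among the circadian output factors 4 of the 10 genes with a window held an E-box (Bhlhe41, Ciart, Tef and Tspan4), and among the core clock genes 2 of 11 (Cry1 and Per1). A gene can have several windows, and the share over all windows is set against windows. By window the counts were 5 of 12 and 2 of 19. Of the output factors none held a D-box, and of the core clock genes with a window 1 of 11 did (Per3, 1 of 19 windows). Dbp, Hlf, Nr1d1, Nr1d2, Per2 and Cry2, whose rises are described next, were not among the genes found with an E-box. A gene without a window could not be searched.

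Dbp stood at -1.23, -1.02, -2.12 and -1.03 in the untreated tumours and at 1.63, 2.25, 2.40 and 1.52 at 4 days. The gap between the groups was wider than the range of either. The rise was 9.86-fold (3.30 ± 0.33, adjusted p = 0.000913), with 3.54 on slide 1 and 3.07 on slide 2, and a further probe of the gene gave 3.57. Tef rose by 1.71 ± 0.26 (adjusted p = 0.00538), from levels of -0.57 to 0.27 to levels of 1.25 to 2.20. Hlf rose by 1.72 ± 0.34 (adjusted p = 0.0222), from -0.19, 0.84, 0.30 and 0.55 to 2.21, 2.74, 1.56 and 1.87. Ciart, which encodes a repressor of CLOCK and BMAL1, rose by 1.66 ± 0.21 (adjusted p = 0.0021), from levels of -1.16 to -0.71 to levels of 0.28 to 1.49. The REV-ERB genes Nr1d1 and Nr1d2 rose by 1.51 ± 0.22 (adjusted p = 0.00471) and 1.50 ± 0.31 (adjusted p = 0.0247). None of these groups overlapped. In all, 7 of 12 output factors rose and none fell, with a median of 1.19, and between 4 and 8 rose whichever array was left out, with 4 in the absence of untreated replicate 1 or 2 or of 4-day replicate 4. Ciart ran from 1.25 to 2.70 over the alternatives.

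In the core loop 5 of 15 genes rose and 1 fell (median 0.25). The 3 Period genes rose, Per1 by 1.38 ± 0.32 (adjusted p = 0.0377), Per2 by 1.14 ± 0.16 (adjusted p = 0.00419) and Per3 by 0.85 ± 0.20 (adjusted p = 0.0375). Per2 stood at -0.95, -0.99, -0.40 and -0.34 untreated, with 2 of these arrays above background, and at 0.09, 0.25, 0.82 and 0.72 at 4 days. The slides differed in its level, but its difference was 1.14 on both. The repressor gene Cry2 rose by 1.02 ± 0.15 (adjusted p = 0.00431). Arntl itself stood at 0.62, 0.41, 0.92 and 0.56 untreated and at -0.77, -1.46, -0.86 and -0.32 at 4 days. It fell 2.79-fold (-1.48 ± 0.17, adjusted p = 0.00149). Without untreated replicate 1, 2 or 4, 4-day replicate 2 or 60-day replicate 3 or 4 2 of 15 rose, and 3 did without 4-day replicate 1 or 4 or resistant replicate 4. Arntl was past the threshold in each of these cases. Over the alternatives Per1 ran from 0.78 to 1.66, Per2 from 1.08 to 2.64 and Per3 from 0.63 to 3.83.

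The other treated tumours, which were compared with the same untreated arrays, differed in these genes. At 60 days Dbp stood at 0.65, 0.20, -0.73 and -0.78 (1.18 above untreated, adjusted p = 0.0684), and in resistant tumours at -1.53, -0.76, -0.93 and -1.83. Arntl stood at 0.22, 0.44, 0.99 and 0.82 at 60 days and at 0.56, 0.46, 1.22 and 0.71 in resistant tumours, within or near the untreated range. The direct comparison of 4-day with 60-day tumours called 1 of 21968 genes (0.00455%), and that gene was Arntl (-1.47 ± 0.17, adjusted p = 0.0213), while 686 had an unadjusted p under 0.05. This call was absent without 4-day replicate 2 or 3, any 60-day replicate or untreated replicate 2 or 3, and in a model with no slide term. In the same comparison Dbp differed by 2.12 ± 0.33 (adjusted p = 0.168) and Per2 by 0.91 ± 0.16 (adjusted p = 0.383). Against resistant tumours 8 genes were called, among them Dbp (3.21 higher, adjusted p = 0.00417) and Arntl (-1.59, adjusted p = 0.00439).

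**Figure D3:**
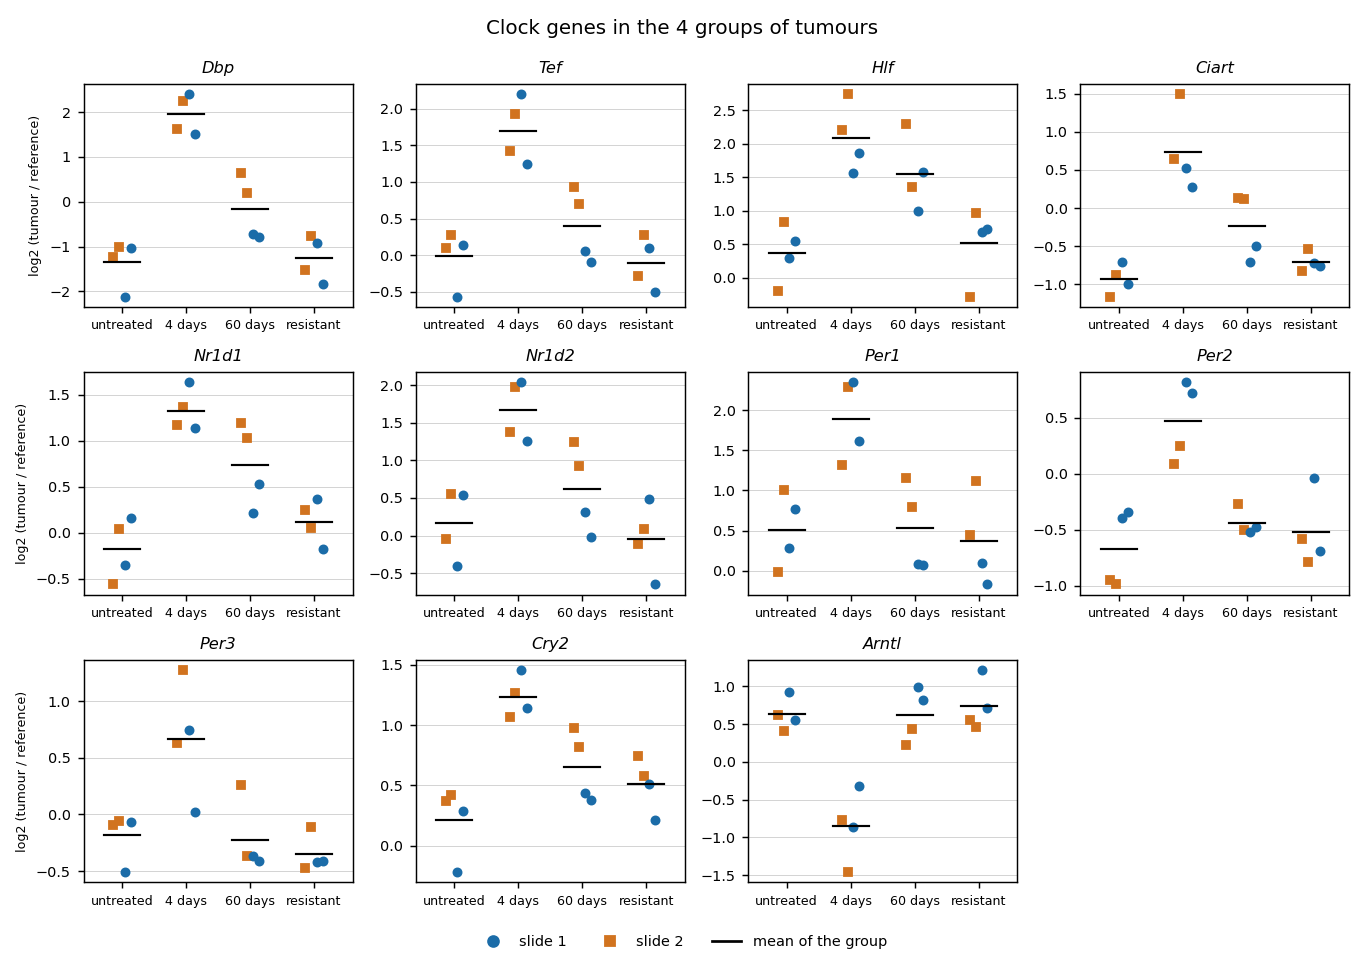
Level of 11 clock genes, as log2 of tumour over reference (y axis, scaled for each gene), in the 4 tumours of each of the 4 groups (x axis), with blue points for slide 1, orange squares for slide 2 and a bar at the group mean. The 4-day tumours stand above all other tumours for Dbp, at 1.52 or more, and below all others for Arntl, at -0.32 or less.

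Targets of the glucocorticoid receptor had 5 of 28 genes higher and none lower, with a median of 0.69 and 26 positive differences. Glul, the glutamine synthetase gene, stood at 1.84, 1.90, 1.89 and 1.90 untreated and at 3.41, 3.43, 2.85 and 3.61 at 4 days, with hardly any spread among untreated tumours. It rose by 1.44 ± 0.16 (adjusted p = 0.00132). Tsc22d3, the glucocorticoid-induced leucine zipper, rose by 1.68 ± 0.37 (adjusted p = 0.0341), from 0.27, 0.96, 0.75 and 1.12 to 1.56, 3.15, 2.96 and 2.13, and by 1.08 with array weights. Klf15, a metabolic regulator that is also under clock control, rose by 1.58 ± 0.27 (adjusted p = 0.0132) from 0.64 to 1.05 to levels of 1.91 to 2.93, and the arrestin domain gene Arrdc2 by 0.64 ± 0.11 (adjusted p = 0.0104). Per1 is the remaining member that rose. Fkbp5, a classical target, had 0.48 ± 0.25 (adjusted p = 0.287). An E-box stood upstream of 6 of 22 genes of this list with a window (6 of 32 windows), and Klf15 holds 2.
Klf15 (chr6:90462326-90462575, plus strand): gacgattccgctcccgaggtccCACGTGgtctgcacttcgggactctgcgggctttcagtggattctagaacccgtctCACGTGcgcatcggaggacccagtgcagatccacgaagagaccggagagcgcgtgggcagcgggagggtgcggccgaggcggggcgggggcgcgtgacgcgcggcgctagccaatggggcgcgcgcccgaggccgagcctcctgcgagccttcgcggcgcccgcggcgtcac

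FOXO factors are held out of the nucleus by growth factor signalling through AKT. Of 24 FOXO and quiescence targets 5 rose and none fell (median 0.38, 22 positive). They were the coregulator Cited2 (0.85 ± 0.21), Foxo1 itself (0.72 ± 0.11, adjusted p = 0.007), the mitophagy kinase Pink1 (0.63 ± 0.13), the autophagy gene Gabarapl1 (0.47 ± 0.12) and Cdkn1b. Foxo1 stood at 0.19, 0.30, 0.58 and 0.43 untreated and at 0.85, 1.22, 1.27 and 1.06 at 4 days, without overlap. The other 4 lost their calls without at least 1 array, and 1 of 24 passed without untreated replicate 2 or 4, 2 without untreated replicate 1 or 4-day replicate 1 or 2, and 3 without 4-day replicate 4, 60-day replicate 1, 2 or 3 or resistant replicate 2 or 4. The glucocorticoid count was 2 without untreated replicate 2, 3 without untreated replicate 1 or 4 or 4-day replicate 4, and 9 without untreated replicate 3.

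Of 47 genes of retinol and xenobiotic metabolism 6 rose and none fell, with a median of 0.60. Adh1, which oxidises retinol to retinal, stood at 1.88, 0.86, 1.15 and 0.90 untreated and at 3.56, 3.84, 3.40 and 3.28 at 4 days. It rose 5.01-fold (2.32 ± 0.24, adjusted p = 0.00101), with 2.32 on slide 1 and 2.33 on slide 2. Inmt, a methyltransferase for indoles, rose by 2.41 ± 0.52 (adjusted p = 0.0298), from -1.75, -1.95, -2.57 and -2.16 to 1.53, -1.32, 0.84 and 0.17. Its 4-day levels lay far apart, with replicate 2 lowest. The glutathione transferases Gstm1 (1.30 ± 0.19, adjusted p = 0.00538), Gstt1 (1.04 ± 0.23) and Gstt3 (0.94 ± 0.17) and the aldehyde dehydrogenase Aldh3a1 (0.83 ± 0.19) rose too. The count was 2 without 4-day replicate 1 or untreated replicate 2 or 4, 11 without 4-day replicate 3 and 12 without resistant replicate 1.

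Among 31 sebaceous gland genes 3 rose and none fell (median 1.14, 28 positive). They were the desaturase Scd1 (1.37 ± 0.28, adjusted p = 0.0246), the nuclear receptor Pparg, which directs lipid storage (1.31 ± 0.31, adjusted p = 0.0383), and Plin2, which coats lipid droplets (1.14 ± 0.22, adjusted p = 0.0218). Scd1 stood at 1.61, 1.72, 2.31 and 1.69 untreated and at 3.19, 3.12, 3.15 and 3.38 at 4 days. Mean levels of the sebaceous list on an array were 0.80 to 1.54 untreated and 1.63 to 2.21 at 4 days. Its 5 defining markers were 0.36 to 1.87 untreated and 1.62 to 4.01 at 4 days as group means. Only Scd1 of them passed, while Mgst1, Awat2, Mc5r and Elovl3 did not (adjusted p = 0.0513, 0.13, 0.139 and 0.241). Awat2 was above background on 2 untreated arrays. No sebaceous gene was called without 4-day replicate 1, 2 or 4 or untreated replicate 2 or 4 and 1 without untreated replicate 1, while 5 were called without untreated replicate 3, 6 without 4-day replicate 3 and 16 without resistant replicate 1.

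Hair shaft and inner root sheath genes had a positive difference in 29 of 29 members and a median of 1.55 (1.41 on slide 1, 1.55 on slide 2), but none passed. Their mean level was 0.93 to 3.39 on untreated and 3.04 to 4.29 on 4-day arrays, which overlapped. Krt71, a keratin of the inner root sheath, stood at 6.03, 4.47, 5.24 and 3.46 untreated and at 6.60, 6.01, 5.63 and 5.69 at 4 days (1.18 ± 0.48, adjusted p = 0.185), and Krt85, of the hair cortex, had 0.71 ± 0.29. Leaving out 4-day replicate 3 or untreated replicate 3 gave 2 calls. Keratinocyte genes had a median of 0.44 with no call among 31 (Krt5 at 0.15 ± 0.23, Krt16 at -0.30 ± 0.41). Of 27 adipocyte genes 2 rose (5 without 4-day replicate 2 and none without 4-day replicate 1 or 4 or untreated replicate 2 or 4), Pparg and the triglyceride lipase Pnpla2 (0.87 ± 0.19, adjusted p = 0.03), and the median of 0.69 was 1.23 on slide 1 and 0.32 on slide 2. Skeletal muscle genes had no call among 32, with a median of 1.25 on slide 1 and -0.77 on slide 2. The part of skin, fat and muscle content in the rises of lipid and retinol genes was not tested.

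Further large rises, named by their size, had no common list. They were the peptide transporter Slc15a2 (2.18 ± 0.47, with 4-day replicate 2 missing), the elongation factor gene Ell3 (2.09 ± 0.52), Pamr1 (1.95 ± 0.41), the gasdermin gene Gsdma2 of skin epithelium (1.91 ± 0.42), Fgl2, a fibrinogen-like product of immune cells (1.78 ± 0.40), the secreted Ism1 (1.64 ± 0.38) and the matrix protein Vwa1 (1.64 ± 0.40). Adjusted p lay between 0.0264 for Pamr1 and 0.0497 for Ell3, and each of the 7 lost its call without at least 1 array. Fgl2 stood at 1.69, 2.59, 3.06 and 3.01 untreated and at 4.26, 3.93, 5.86 and 3.42 at 4 days, with 4-day replicate 3 the highest. Ell3 had 1.25 on slide 1 and 2.94 on slide 2.

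Among 37 matrix proteases and inhibitors 5 fell and none rose, with a median of -0.56 and 31 negative differences. Adamts4, a protease that cleaves aggrecan and versican, stood at 4.76, 4.93, 4.48 and 4.70 untreated and at 2.46, 1.95, 2.27 and 1.13 at 4 days, far apart and with 4-day replicate 4 the lowest. The fall was 6.80-fold (-2.76 ± 0.32, adjusted p = 0.00149), and another probe gave -2.82. The collagenase Mmp13 fell by 1.94 ± 0.40 (adjusted p = 0.0247), from 0.51, 0.96, 3.00 and 1.17 to -0.71, -0.73, -0.81 and 0.14. The shedding protease Adam19 fell by 1.94 ± 0.27 (adjusted p = 0.0039), while another probe of it gave -0.54. Adamts1, a relative of Adamts4, fell by 1.84 ± 0.44, and Timp1, an inhibitor of metalloproteinases, by 2.04 ± 0.50 (adjusted p = 0.0419 and 0.0479). The count was 2 without 4-day replicate 1 or untreated replicate 2 or 4, 3 without 4-day replicate 2 or 4, 60-day replicate 1, 3 or 4 or resistant replicate 2 or 4, and 8 without 4-day replicate 3. Over the alternatives Adam19 ran from -2.36 to -1.24.

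The AP-1 motif TGANTCA, a letter pattern bound by FOS and JUN proteins, stood in 6.75% of all windows of 250 bases before a start, searched on both strands. In this list it stood in 5 of 29 windows, which belong to 5 of the 25 genes with a window (Adam19, Mmp10, Mmp12, Mmp13 and Mmp3). Of the 12 MAPK targets with a window 1 held it (Plaur, 1 of 16 windows). The window of Mmp13 is shown because it has the motif close to the start.
Mmp13 (chr9:7272264-7272513, plus strand): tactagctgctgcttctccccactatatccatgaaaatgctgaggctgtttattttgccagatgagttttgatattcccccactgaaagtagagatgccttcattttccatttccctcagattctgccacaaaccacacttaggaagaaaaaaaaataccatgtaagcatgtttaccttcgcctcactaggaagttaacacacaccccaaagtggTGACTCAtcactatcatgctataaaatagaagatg

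Among activated fibroblast genes 3 of 34 fell and none rose (median -0.71, 31 negative). Cthrc1, a secreted collagen triple helix protein, stood at 3.25, 2.94, 2.59 and 2.53 untreated and at 1.28, 1.22, 0.73 and 0.83 at 4 days, and fell by 1.81 ± 0.20 (adjusted p = 0.00149). Ccn4, a matricellular gene, fell by 0.99 ± 0.15 (adjusted p = 0.00566), and Timp1 belongs here too. The count was 9 without 4-day replicate 3 and 8 without resistant replicate 1. Of the collagens 1 of 24 fell, Col8a1 (-1.87 ± 0.38, adjusted p = 0.0251), and the median was -0.49. Of 28 proteoglycan and hyaluronan genes 3 fell, which were the versican gene Vcan (-1.84 ± 0.31, adjusted p = 0.0119, with other probes at -0.97 to -0.64), the hyaluronan synthase Has2 (-1.65 ± 0.29, adjusted p = 0.0177) and the syndecan Sdc3 (-0.89 ± 0.21). Of 19 integrins Itga4 fell by 1.70 ± 0.29 (adjusted p = 0.0139) and Itga8 by 1.60 ± 0.33 (adjusted p = 0.0251), although the difference of Itga8 was -0.32 with the deposited value table. Without untreated replicate 2 or 4 no collagen, proteoglycan or integrin passed, and Col8a1 was also lost without 4-day replicate 1 or 4 or untreated replicate 1. Vcan was at -1.15 as the mean of its probes. Of the fibroblast markers Col1a1 had -0.62 ± 0.29, Col1a2 -0.53 ± 0.37, Col3a1 -0.37 ± 0.37, Pdgfra 0.05 ± 0.36 and Dcn 0.51 ± 0.43. None was past the threshold, and the part of fibroblast content in these falls was not tested.

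Large falls outside the lists were Tmem200a, a membrane protein gene (-2.37 ± 0.25, adjusted p = 0.00112), the natriuretic peptide gene Nppb (-2.06 ± 0.48), Klhl30 (-1.92 ± 0.41), the pancreatic lipase gene Pnlip and Mdga2, an adhesion gene of neurons (-1.81 ± 0.27, adjusted p = 0.00538). Tmem200a stood at 2.40, 2.50, 1.83 and 2.26 untreated and at -0.31, 0.35, -0.08 and -0.43 at 4 days. Pnlip was not well above background on any 4-day array and was at least 2.87-fold lower in Cy5 (adjusted p = 0.0188). This bound sets the untreated mean against the higher of the 4-day signal and the lowest signal above background, and is open to dye bias. Its difference ran from -6.11 to -1.21 over the alternatives, that of Mdga2 from -3.87 to -1.48 and that of Nppb from -2.97 to -1.15. Such a bound applies to 16 of the 437 genes that fell.

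Mitf, the master transcription factor of the pigment cell lineage, rose by 0.88 ± 0.20 (adjusted p = 0.0352), from 0.70, 0.17, 0.56 and 0.23 to 1.41, 0.98, 1.27 and 1.51. The groups did not overlap, and the difference was 0.99 on slide 1 and 0.76 on slide 2. Of 21 genes of melanin synthesis and the melanosome 1 rose, Gpnmb, a melanosome glycoprotein that macrophages make too (1.87 ± 0.45, adjusted p = 0.0448). The median of the list was 0.75, with 0.32 on slide 1 and 1.10 on slide 2, and 18 differences were positive. Dct had 0.75 ± 0.57 and Tyr 0.71 ± 0.32, both without a call, and Pmel 1.49 ± 0.47 (adjusted p = 0.103). Pmel stood at 1.88, 0.93, 1.87 and 0.97 untreated and at 3.40, 3.51, 1.84 and 2.85 at 4 days, where replicate 3 was the lowest. Without 4-day replicate 3 the list had 5 calls, and Gpnmb was past the threshold in no case other than without 4-day replicate 3, 60-day replicate 1, resistant replicate 1 or 2 or untreated replicate 3.

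Regulators of the melanocyte and neural crest states moved both ways, with 3 of 29 lower and Mitf higher (median -0.13). Fabp7, a fatty acid binding protein of glia and crest cells, fell by 1.93 ± 0.43 (adjusted p = 0.033), from 4.95, 5.42, 3.46 and 4.90 to 2.16, 3.47, 3.15 and 2.20. Untreated replicate 3 lay just under 4-day replicate 2, and the difference was -3.20 with Cy5 alone. The intermediate filament gene Nes fell by 1.84 ± 0.44 (adjusted p = 0.0405), and Snai1, a factor of the mesenchymal state, by 1.27 ± 0.29 (adjusted p = 0.0385). Nes stood near -0.73 in 4-day replicates 1, 3 and 4 and at 1.12 in replicate 2. Sox10, the crest factor of this lineage, had -0.16 ± 0.18. Among 18 Schwann and nerve genes Pou3f1 fell by 0.94 ± 0.20 (adjusted p = 0.0262), but not without untreated replicate 1, 2 or 4. Without 4-day replicate 1 or 4 or untreated replicate 2 or 4 none of the regulators was called, and without 4-day replicate 3 there were 5 lower and 3 higher.

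Of 53 interferon response genes 52 had a negative difference, the median was -0.54, and 1 fell, Ddx58, which encodes the RNA sensor RIG-I (-0.56 ± 0.13, adjusted p = 0.0424). That is 1.89% of the list, against 1.99% of all genes called lower. The mean level of the list on an array was 0.65 to 1.39 untreated and -0.14 to 0.80 at 4 days, so the groups overlapped. Without 4-day replicate 3 there were 17 calls, without resistant replicate 1 there were 2, and without any other array there was none. Of 24 MHC class I presentation genes 2 fell, the loading complex chaperones Calr (-0.54 ± 0.08, adjusted p = 0.00623) and Pdia3 (-0.52 ± 0.12, adjusted p = 0.0371), which also serve other glycoproteins. Calr passed whichever array was left out, and Pdia3 did not without 4-day replicate 1 or 4, 60-day replicate 3 or 4 or untreated replicate 1, 2 or 4. Their median was -0.29, and that of class II was -0.21 with no call among 14 (H2-Ab1 at -0.05 ± 0.17).

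Gzma, a granule protease of cytotoxic cells, fell by 1.41 ± 0.29 (adjusted p = 0.0242), from 1.57, 1.55, 2.24 and 1.45 to 0.06, 0.81, 0.53 and -0.25, the only call among 19 cytotoxic and NK genes (median -0.52). None of 26 T cell genes passed (median -0.19, -0.68 on slide 1 and 0.12 on slide 2). Cd3e had -0.09 ± 0.24. Cd8a had -0.40 ± 0.21 (adjusted p = 0.301 by limma) and was well above background on no 4-day array and on only 2 untreated arrays. Among 21 checkpoint genes Cd276, which encodes B7-H3, fell by 0.67 ± 0.14 (adjusted p = 0.0278). Gzma and Cd276 lost their calls without 4-day replicate 1 or 4 or untreated replicate 2 or 4, and Cd276 ran from -1.04 to -0.57 over the alternatives.

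Of 31 chemokines and myeloid growth factors 2 fell, the alarmin Il33 (-1.63 ± 0.32, adjusted p = 0.0217) and Cx3cl1, which draws monocytes (-0.68 ± 0.15, adjusted p = 0.0344), with a median of -0.41. Il33 stood at 2.39, 1.94, 2.64 and 2.00 untreated and at 0.70, 0.37, 1.06 and 0.35 at 4 days, without overlap. Ccl2, a chemoattractant of monocytes, had -1.16 ± 0.37 (adjusted p = 0.105), also without overlap (-1.14 to -0.38 untreated, -2.24 to -1.22 at 4 days). Among 32 monocyte and macrophage genes the median was -0.35, and 1 passed (3.12%, against 2.93% of all genes). It was Lgals3, which encodes galectin 3 and rose by 1.12 ± 0.28 (adjusted p = 0.0483 by limma). Lgals3 stood at -0.63, -0.63, 0.56 and -0.78 untreated and at 0.95, 0.96, 0.10 and 1.01 at 4 days, so that replicate 3 of each group lay on the side of the other. Lgals1, a galectin counted with the myeloid suppressive effectors, fell by 1.20 ± 0.29 (adjusted p = 0.0462, 1 of 18 members). Granulocyte genes had no call among 23 (median -0.35), nor had B and plasma cell genes among 11. Of 18 dendritic and Langerhans cell genes 1 fell, the actin bundler Fscn1 (-0.88 ± 0.20), and of 14 mast cell genes 1 rose, the carboxypeptidase Cpa3 (0.60 ± 0.12). Without 4-day replicate 3 the monocyte list had 6 genes lower and the chemokine list 6, and the chemokine list had none without 4-day replicate 1 or 4 or untreated replicate 1, 2 or 4. Lgals3 and Lgals1 passed only when 4-day replicate 3, resistant replicate 1 or untreated replicate 3 was the array left out, besides all arrays together.

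Of 31 genes of the unfolded protein and heat shock responses 6 fell and none rose, with a median of -0.12 and 12 positive differences. Sdf2l1, a cofactor of the chaperone BiP, stood at -0.78, -0.51, -0.46 and -0.66 untreated and at -1.58, -1.38, -1.52 and -1.46 at 4 days, a fall of 0.88 ± 0.11 (adjusted p = 0.00216). Hspa5, which encodes BiP, stood at 0.34, 0.30, 0.27 and 0.34 untreated and at -0.35, -0.21, -0.30 and -0.31 at 4 days. Its spread within each group was a small part of the fall of 0.61 ± 0.10 (adjusted p = 0.00937). Hsp90b1 fell by 0.80 ± 0.14, the disulfide isomerase Pdia6 by 0.84 ± 0.14 and the cytosolic Hsp90aa1 by 0.54 ± 0.11, and the sixth was Calr. Between 3 and 7 fell whichever array was left out, with 3 without untreated replicate 2 or 4. At 60 days Hspa5 differed from untreated by -0.25 and Sdf2l1 by -0.41 (adjusted p = 0.15 and 0.0658), against the same untreated arrays. The direct comparison of 4-day with 60-day tumours called neither gene.

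Of 30 genes of one-carbon metabolism and amino acid stress 2 fell, the mitochondrial folate enzymes Aldh1l2 (-1.56 ± 0.30, adjusted p = 0.0217) and Mthfd2 (-0.66 ± 0.14, adjusted p = 0.026), and the stress protein gene Nupr1 rose (1.08 ± 0.24, adjusted p = 0.0344). Of 36 complement and coagulation genes the coagulation inhibitors Tfpi (-0.97 ± 0.21) and Tfpi2 (-0.75 ± 0.15) fell. Tfpi2 was above background on 1 of the 4-day arrays and ran from -2.86 to -0.59 over the alternatives. Among 31 Wnt genes the ligand Wnt5b rose by 1.01 ± 0.24, and among 23 endothelial genes the factor Sox17 by 0.51 ± 0.13. Sox17 was at 0.18 and the mast cell gene Cpa3 at 0.24 at the low end of the alternatives. Each of these calls was lost without untreated replicate 2. No call was made among 56 genes of oxidative phosphorylation (median 0.02), 35 of hypoxia and glycolysis (median -0.10), 20 imprinted growth genes, 13 pericyte genes or 12 erythroid genes. Lists with 1 call included growth factor ligands (3.45% called), collagens (4.17%), Wnt genes (3.23%) and endothelial genes (4.35%), against 2.93% of all genes.

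**Figure D4:**
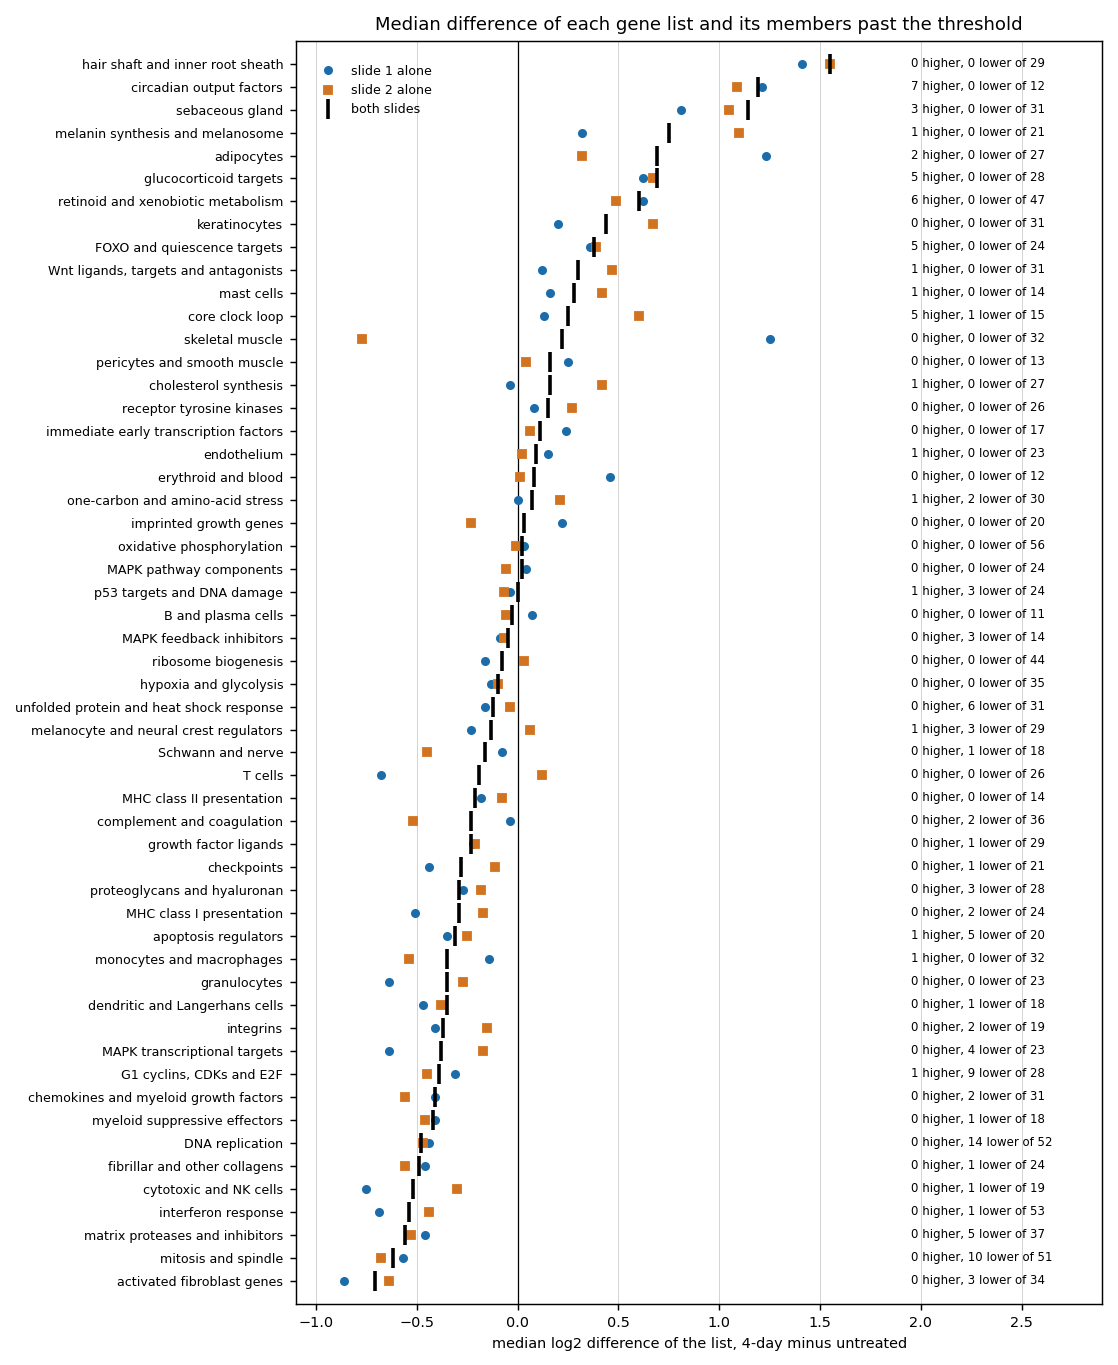
Median log2 difference between 4-day and untreated tumours (x axis) for each of 54 gene lists (y axis, sorted), with a black tick for both slides, a blue point for slide 1 alone and an orange square for slide 2 alone, and the members past the threshold in each direction on the right. Circadian output factors (7 higher of 12) and DNA replication (14 lower of 52) hold many calls with slides close together, while hair shaft genes have the highest median, 1.55, with no call, and skeletal muscle splits by slide.

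Of the genes that changed at 4 days, 12 passed the threshold in the same direction at 60 days and in resistant tumours as well, where 616 (2.8%) and 14 (0.0637%) of all genes passed. All 3 comparisons use the same untreated arrays, so a level particular to those enters each of them. The 4 that were higher are Adh1, Nupr1, the histone H1 gene Hist1h1c (0.57 ± 0.11) and Wfdc21, a secreted peptide gene (1.43 ± 0.29). The 8 that were lower include E2f1, Fblim1, which encodes a filamin-binding adhesion protein, the matrix gene Crtac1 and transcripts of chromosome 8 without a RefSeq symbol. In resistant tumours the adjusted p by limma was 0.0072 for Adh1, 1.57e-05 for ENSMUST00000067018 and 0.000455 for chr8:111766396-111772271_R. For the rest of the 12 it lay between 0.0446 and 0.0475, just under the threshold. The 4-day calls of Nupr1, Hist1h1c, Wfdc21 and Crtac1 were lost without untreated replicate 2 or 4. Fblim1 stood at 1.10, 1.26, 0.86 and 1.09 untreated and at -0.07, -0.27, -0.06 and -0.47 at 4 days (-1.30 ± 0.13, adjusted p = 0.000913), and its difference was -1.45 at 60 days and -0.81 in resistant tumours. The size depended on the signals used for Wfdc21 (0.75 with the deposited value table) and Crtac1 (-1.58 with that table).

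The smallest adjusted p of the comparison, 2.18e-05, belonged to the transcript ENSMUST00000067018 (probe at chr8:111772977-111773036 on build mm9, minus strand). It stood at 2.05, 2.11, 1.71 and 1.77 untreated and at 0.26, 0.27 and 0.21 in 4-day replicates 1, 3 and 4, with replicate 2 missing. The difference was -1.64 ± 0.10, and it was -1.77 at 60 days and -1.63 in resistant tumours. A neighbouring intergenic transcript (chr8:111766396-111772271_R) fell by 0.99 ± 0.09 (adjusted p = 0.000329), and it was above background on all untreated arrays but on 1 4-day array. A further transcript of the chromosome (chr8:49915104-49915704_R) fell by 1.43 ± 0.19 (adjusted p = 0.00253), also with 1 4-day array above background. With the deposited value table the differences of chr8:111766396-111772271_R and chr8:49915104-49915704_R were -3.10 and -3.16. Every treated tumour in which ENSMUST00000067018 was measured, of any group, lay at 0.34 or below.

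On chromosome 16 a run of 8 neighbouring intergenic transcripts of the forward strand were called lower. They lie between the probe of chr16:40070103-40073270_F and that of chr16:40471828-40472481_F on build mm9, and their signals at 4 days were near background. The probes of chr16:40070103-40073270_F and chr16:40096026-40097242_F were not well above background on any 4-day array, so they were at least 1.80-fold and 1.86-fold lower in Cy5 (adjusted p = 0.0188 and 0.0449). Of the other 6, 2 were above background on 1 4-day array, 3 on 2 and 1 on all 4, and their measured differences ran from -1.01 ± 0.23 to -2.28 ± 0.56. The strongest, chr16:40267386-40268181_F, had -1.37 on slide 1 and -3.19 on slide 2, and all 8 were larger on slide 2. The nearest probes on either side of the run had 0.07 ± 0.66 and 0.10 ± 0.09. The first of them is for a transcript of the reverse strand whose region overlaps the first transcript of the run. Its levels split by slide (1.28 and 1.94 against -1.91 and -1.87 at 4 days), so it cannot mark an edge of the run. At 60 days the 8 had differences of -0.77 to -2.08 and in resistant tumours of -0.78 to -2.34, against the same untreated arrays. At 60 days 5 of them passed and 3 did not (adjusted p = 0.0546 to 0.078), and in resistant tumours 0 of 8 passed (adjusted p = 0.0838 to 0.153). Each of the 8 lost its call without at least 1 array, untreated replicate 2 and 4-day replicate 1 among them for all 8. In chr16:40470294-40470935_F untreated replicate 3 stood at 0.32 while the other untreated tumours stood at 1.45 to 1.61. The 8 were picked after their values were seen, as were the transcripts of chromosome 8 above.

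**Figure D5:**
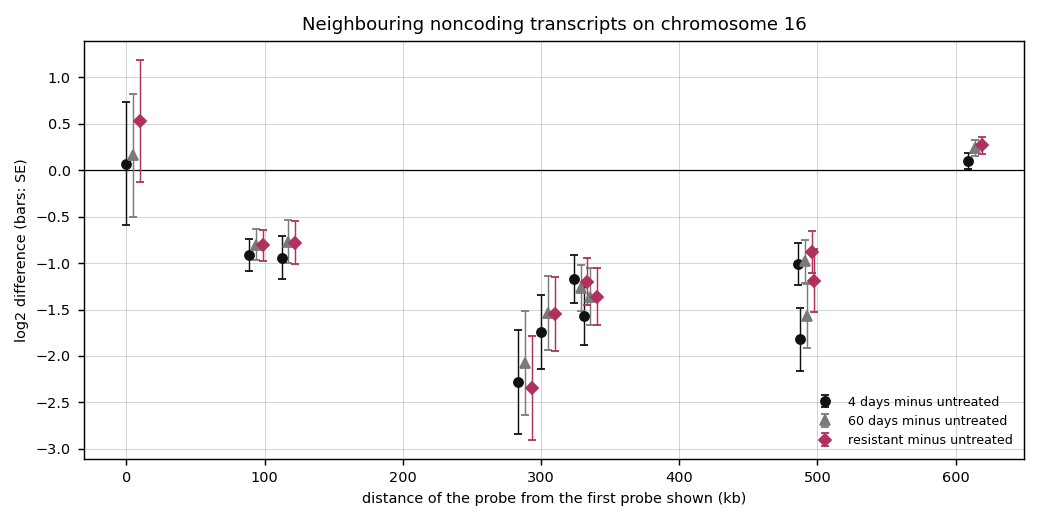
Log2 difference from untreated tumours (y axis, with bars for the SE) of 10 neighbouring noncoding transcripts on chromosome 16, by the distance in kb of each probe from the first (x axis), for 4-day (black), 60-day (grey) and resistant tumours (red), drawn side by side. The 8 transcripts in the middle have negative differences in all 3 comparisons, which share the untreated arrays, with 8 past the threshold at 4 days, 5 at 60 days and 0 in resistant tumours. The outer 2 have 0.07 ± 0.66 (first probe, reverse strand) and 0.10 ± 0.09 (last probe) at 4 days.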

How the data were processed

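Total RNA of melanoma biopsies was measured against a universal mouse reference on 2-colour Agilent arrays, per the labels. Per the file headers and the submitters' processing notes, the authors' files hold spot intensities of Cy5 (tumour) and Cy3 (reference) from Agilent Feature Extraction 10.7.3.1, the log10 ratio of its processed signals, and flags per spot. The value table deposited by the authors holds log2 ratios of the same arrays (slope 0.993 on the log2 of the files' ratio), with 21.6% to 40.2% of values missing by an unstated rule and column medians of -0.194 to -0.0638, so that it is not centred.

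Mean intensities were background-corrected by normexp with offset 50 and normalised by loess within each array (limma 3.58.1, R 4.3.3). Control spots and outlier spots (0.55%) were left out. Of 55681 probes, 30486 whose Cy5 signal stood well above background in 4 or more of the 16 tumours were kept, and the probe of highest mean intensity stood for each of 21968 genes or transcripts, 15879 of them with a RefSeq symbol (28361 probes matched by accession, 3186 by name, 24134 unmatched and kept under the array's name). limma fitted group and slide over the 16 arrays, with Benjamini-Hochberg adjustment over all 21968 and a threshold of 0.05. The 2 slides hold 2 arrays of each group. The position of an array on its slide follows the group, so position and group cannot be told apart. The number of arrays limits the precision. The procedure was tested on simulated data with noise independent between genes and changes put only into genes of less than the median spread. Variation that many genes share on an array was not simulated, so that test cannot bear on calls that rest on single arrays.

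Genes named are the 15 largest changes in each direction with a RefSeq symbol and without overlap of the groups, up to 6 members past the threshold of each list (or the 2 brightest where none passed) and fixed pathway and lineage genes. Defining markers named for skin and stroma, other apoptosis and cell-cycle members, the genes past the threshold in all treated groups and the chromosome 16 transcripts were added after their values were seen. Some genes are not reported here. The samples compared, the 54 lists and the tests were chosen with earlier results of these data known, so the lists carry no test. Promoter windows of 250 bases come from RefSeq. Alternatives changed the slide term, the arrays in the fit, background correction, normalisation, the signals used, the filter, the probe rule, array weights and the prior, and left out each array in turn.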

Additional observations from a re-analysis of the deposited data

Results flagged for a closer look

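Single tumours stood far from the other 3 of their group in 20 of 308 sets of 4 values searched, by a gap that chance gives in about 1 of 20 groups, or about 15 of 308. Untreated replicate 3 stood apart for Ccnd1 (1.75 against 2.72 to 2.81), Adam19 (1.96, with the others at 2.91 or above), Per3 (-0.51 against -0.09 to -0.06), Scd1 (2.31 against 1.61 to 1.72), Gzma (2.24 against 1.45 to 1.57), Lgals3 (0.56 against -0.78 to -0.63), Cd8a (1.37 against 0.32 to 0.47) and chr16:40470294-40470935_F (0.32 against 1.45 to 1.61). Untreated replicate 1 did for Timp1 (0.29 against 1.29 to 1.44), Glul (1.84 against 1.89 to 1.90), Ncaph (-0.90 against -1.68 to -1.57), Smc2 (-0.73 against -1.32 to -1.25) and Mapk3 (0.26 against 0.53 to 0.58), and untreated replicate 4 for Cx3cl1 (-0.64 against -0.48 to -0.46). Among 4-day tumours replicate 2 stood apart for Ccnd1 (0.73 against -0.13 to -0.04), Bak1 (0.06 against -0.41 to -0.35) and Nes (1.12 against -0.74 to -0.73), replicate 3 for Lgals3 (0.10 against 0.95 to 1.01), and replicate 4 for Mmp13 (0.14 against -0.81 to -0.71) and Ccn4 (-2.29 against -1.88 to -1.83). The direct test of 4-day against 60-day tumours called Arntl, with a difference of -1.47 ± 0.17 (adjusted p = 0.0213 by limma).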

How the results depend on the processing

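No paired analysis was possible because the replicate numbers of untreated tumours are in accession order and those of 4-day tumours come from their own codes, so they pair nothing. Against 644 genes, 294 passed with no slide term, 24 with only the 8 arrays of the 2 groups (12 of them higher), 2 on slide 1 alone (0 higher), 3 on slide 2 alone (1 higher), 38 with median centring, 368 with the processed signals, 299 with the deposited value table and 8988 with array weights, where 53% of calls were higher against 32.1% with equal weights. Leaving out 1 array gave 89 to 1783. The other settings stayed within 1.5 times of 644. The single difference between 4-day and 60-day tumours became 0 with no slide term, on slide 1 alone, on slide 2 alone and with median centring, 15 with array weights, and 0 to 2 when 1 array was left out.

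Of 4961 values of 156 named genes, 3510 kept direction and side of the threshold, 1424 lost the call, 21 gained one and 6 turned direction. The last belong to 3 genes that were not past the threshold. Myc (0.09) was -0.31 on slide 1 alone and -0.08 to 0.30 with 1 array left out. Krt16 (-0.30) was 0.17 on slide 2 alone and -0.46 to 0.08 with 1 array left out, and Sox10 (-0.16) was 0.01 with the deposited value table. Of 132 named calls, 28 stood whichever array was left out, and leaving out untreated replicate 2 kept 28. The cause of these shifts was not tested. Spots near background limit the genes that are not above it on the 4-day arrays.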
